A study of Mus musculus with 16 samples.

Results

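The nuclear genes of oxidative phosphorylation were described in sorted spermatogenic cells of the mouse. Members were the 90 of 13101 genes in the deposited table whose symbol names a subunit or assembly factor of respiratory complex I (Nduf), II (Sdh), III (Uqcr, Cyc1), IV (Cox4 to Cox8), V (Atp5) or cytochrome c (Cycs, Cyct). The symbols were applied as written, so the set also holds Ndufa4 and its relative Ndufa4l2, which are counted with complex IV, and the assembly factor Atp5sl, which is counted with complex I. There were 36 subunits and 7 assembly factors of complex I, 4 subunits of complex II, 9 of complex III, 13 of complex IV, 16 of complex V, the somatic cytochrome c gene Cycs and 4 testis isoforms (Cyct, Cox6b2, Cox7b2 and Cox8c), which are set apart. All 90 passed the filter on low values (at least 1 FPKM in at least 2 libraries). FPKM, the unit of all levels here, corrects fragment numbers for the length of a transcript and for how many fragments were mapped in a library.

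The series addressed how loss of Tex10 changes transcripts of spermatogenic cells. The Tex10-deficient mice were Tex10 f/-; Stra8iCre, with a floxed and a null allele of Tex10 and a Cre recombinase whose Stra8 promoter is active in spermatogonia. They were set against wild-type mice. All mice were C57BL/6J males of 8 weeks, and no allele beyond these is named for either genotype. Each genotype gave 2 polyA-enriched bulk libraries from each of 4 sorted fractions (spermatogonia, MI spermatocytes, MII spermatocytes and spermatids), 16 libraries in 8 groups. The sources used here do not give how cells were sorted or whether several animals were pooled. No label says that both libraries of a group stem from different animals, and the p-values therefore describe only the spread among these samples, which may be technical.

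The respiratory chain passes electrons from NADH and succinate through complexes I and II to complex III, from there by cytochrome c to complex IV and oxygen, and complex V makes ATP from the proton gradient so formed. A small part of its subunits is encoded in mitochondrial DNA, and the nuclear genes described here encode the rest. Mammalian germ cells replace several somatic subunits with testis isoforms from separate genes. The X chromosome is silenced during male meiosis, and some X-linked metabolic genes have autosomal copies that are used in the testis. Among the members, Cox7b, Ndufa1 and Ndufb11 are X-linked.

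Sample titles define the groups. Title and cell type field name different types for 6 of 8 Tex10-deficient libraries and for 0 of 8 wild-type libraries. By Spearman correlation across genes, the most similar wild-type library had the titled cell type for 8 of 8 Tex10-deficient libraries, and the type of the field for 2 of 8. Tex10 itself had 13.6 and 18.96 FPKM in Tex10-deficient spermatogonia, against 55.4 and 50.02 FPKM in wild-type spermatogonia, and it was lower in both Tex10-deficient libraries of the other 3 fractions too. Summed markers of spermatogonia (8 genes) were highest in the spermatogonia of both genotypes (392 to 435 FPKM in Tex10-deficient and 535 to 577 FPKM in wild-type libraries), and those of round spermatids (6 genes) in the spermatids (965 to 972 FPKM in Tex10-deficient and 916 to 1054 FPKM in wild-type libraries). The 8 spermatocyte markers summed to 1565 to 2542 FPKM in Tex10-deficient and 1563 to 2045 FPKM in wild-type MI spermatocytes. In spermatids the same sum was 2452 to 3260 FPKM in Tex10-deficient and 2672.5 to 3169 FPKM in wild-type libraries. This sum therefore does not set MI spermatocytes apart from spermatids.

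The libraries labelled MII spermatocytes went against their label. There the spermatocyte markers summed to only 71.6 to 122 FPKM in Tex10-deficient and 156 to 466 FPKM in wild-type libraries. The 6 Leydig cell markers summed to 899 to 1241 FPKM in Tex10-deficient and 785 to 1267 FPKM in wild-type MII libraries, whereas they stayed between 13.9 and 199 FPKM in the other 12 libraries. Sertoli markers (3 of 7 listed were in the table), macrophage and immune markers (7 of 7) and myoid and endothelial markers (4 of 5) were also high in MII libraries, and the immune markers were high in spermatogonia as well (182 to 286 FPKM in Tex10-deficient and 282 to 446 FPKM in wild-type libraries, against 2.03 to 5.36 FPKM in the MI libraries). The 6 elongating spermatid markers summed to 320 to 601 FPKM in Tex10-deficient and 698 to 766 FPKM in wild-type MII libraries, above the 170 to 218 FPKM of Tex10-deficient and the 77.4 to 112 FPKM of wild-type MI libraries. The part of other cells in any result below was not tested. In bulk samples, fewer cells of a type and less RNA per cell cannot be told apart.

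Promoter sequences were looked at because nuclear respiratory genes are known for sites of the transcription factors NRF1 and GABPA, a factor of the ETS family, and for CRE sites bound by CREB factors. RefSeq promoters (GRCm38.p6, from 250 bases before to 50 bases after the annotated start) were found for 76 members. All motifs were searched on both strands. The NRF1 motif, GCGCA and GCGC with any 1 base between them, was found in 19 of 73 promoters of members other than testis isoforms (26.03%) and in 5.19% of 27025 genes with a promoter. CCGGAAG, an ETS motif that GABPA binds, was found in 17 of 73 (23.3%) and in 9.93% of all genes. The CRE motif TGACGTCA was found in 5 of 73 (6.85%) and in 2.03% of all genes. Of the testis isoforms, 3 had a promoter entry, and 0 of 3 held any of these motifs, which says only that these letters are not in the window. None of the 3 motifs is contained in another. Below are the promoters of the testis isoforms Cyct, Cox6b2 and Cox7b2, each followed by that of its somatic counterpart, and that of the complex III subunit Uqcrc1, which carries 2 NRF1 matches. They read 5′ to 3′ in the direction of transcription, with motif matches in capitals. Cyct lies on the minus strand at chr2:76360404-76360703, Cycs on the minus strand at chr6:50566520-50566819, Cox6b2 and Cox6b1 on the minus strand at chr7:4753045-4753344 and chr7:30626065-30626364, Cox7b2 on the minus strand at chr5:71548156-71548455, Cox7b on the plus strand at chrX:106015450-106015749 and Uqcrc1 on the plus strand at chr9:108936398-108936697.
Cyct: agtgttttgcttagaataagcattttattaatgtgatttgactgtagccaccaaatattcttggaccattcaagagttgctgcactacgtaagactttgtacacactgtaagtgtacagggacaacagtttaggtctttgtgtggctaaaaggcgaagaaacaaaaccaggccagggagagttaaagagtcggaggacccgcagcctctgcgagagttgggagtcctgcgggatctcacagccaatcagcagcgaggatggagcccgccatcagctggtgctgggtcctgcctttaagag
Cycs: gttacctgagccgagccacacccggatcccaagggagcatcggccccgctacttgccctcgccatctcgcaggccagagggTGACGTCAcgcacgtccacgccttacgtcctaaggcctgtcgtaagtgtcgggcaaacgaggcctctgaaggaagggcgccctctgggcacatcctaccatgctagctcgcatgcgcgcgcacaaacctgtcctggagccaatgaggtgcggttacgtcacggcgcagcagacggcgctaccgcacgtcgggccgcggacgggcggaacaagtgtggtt
Cox6b2: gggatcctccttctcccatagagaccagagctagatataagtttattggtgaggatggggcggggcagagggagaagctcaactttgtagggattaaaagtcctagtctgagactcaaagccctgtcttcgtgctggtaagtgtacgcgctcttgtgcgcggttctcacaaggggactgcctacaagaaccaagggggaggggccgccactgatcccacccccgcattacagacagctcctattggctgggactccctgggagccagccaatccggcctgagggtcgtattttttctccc
Cox6b1: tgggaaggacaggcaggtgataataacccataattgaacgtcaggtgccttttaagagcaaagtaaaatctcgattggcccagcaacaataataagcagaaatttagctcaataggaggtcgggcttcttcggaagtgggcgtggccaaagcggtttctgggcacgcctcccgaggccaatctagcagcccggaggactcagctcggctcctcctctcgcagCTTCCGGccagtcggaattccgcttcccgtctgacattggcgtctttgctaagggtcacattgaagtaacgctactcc
Cox7b2: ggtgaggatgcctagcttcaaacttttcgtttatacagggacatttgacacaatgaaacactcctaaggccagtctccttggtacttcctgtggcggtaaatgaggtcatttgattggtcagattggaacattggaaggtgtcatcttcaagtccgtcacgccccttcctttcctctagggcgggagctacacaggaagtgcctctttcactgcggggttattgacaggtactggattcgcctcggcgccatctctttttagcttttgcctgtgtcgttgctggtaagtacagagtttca
Cox7b: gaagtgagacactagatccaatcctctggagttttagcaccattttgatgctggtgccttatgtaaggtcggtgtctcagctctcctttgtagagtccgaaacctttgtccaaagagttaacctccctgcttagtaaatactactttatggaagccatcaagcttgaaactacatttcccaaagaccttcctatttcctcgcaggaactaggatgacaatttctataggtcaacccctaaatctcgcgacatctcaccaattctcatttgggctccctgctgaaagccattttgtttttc
Uqcrc1: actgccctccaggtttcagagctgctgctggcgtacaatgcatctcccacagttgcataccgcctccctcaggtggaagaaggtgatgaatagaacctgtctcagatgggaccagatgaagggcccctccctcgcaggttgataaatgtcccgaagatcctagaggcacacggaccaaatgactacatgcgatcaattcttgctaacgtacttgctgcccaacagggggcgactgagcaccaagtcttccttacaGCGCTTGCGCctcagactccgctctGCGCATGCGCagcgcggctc
In these windows the Cycs promoter holds a CRE, the Cox6b1 promoter an ETS motif on the opposite strand, and Cox7b none of the motifs.

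The summed level of the member genes differed between the fractions. Their values summed to 2042 to 2100 FPKM in Tex10-deficient and 2209 to 2274 FPKM in wild-type spermatogonia, and to 2204 to 3535 FPKM in Tex10-deficient and 2983 to 3061 FPKM in wild-type MI spermatocytes. The sums were 1732 to 2443 FPKM in Tex10-deficient and 1746 to 1852 FPKM in wild-type MII spermatocytes, and 3297 to 4404 FPKM in Tex10-deficient and 3848 to 4401 FPKM in wild-type spermatids. As a share of all FPKM of a library, members, which are 90 of the 13101 genes, made up between 0.617% and 1.199%. By share, unlike by sum, spermatids lay below spermatogonia. The share was 1.02% to 1.12% in Tex10-deficient and 1.11% to 1.15% in wild-type spermatogonia. In spermatids it was 0.642% to 0.914% in Tex10-deficient and 0.721% to 0.859% in wild-type libraries. Among the members, Cox5a, a nuclear subunit of complex IV, had the highest mean over all libraries (156 FPKM). It was followed by Cox7b2 (143 FPKM), Atp5o of complex V (124 FPKM), Cox8c (112 FPKM) and the complex I core subunit Ndufv2 (104 FPKM). The annotated gene matched to Atp5o shares 54.15% of its exon bases with Donson and 45.85% with another annotated gene named Atp5o, both on its strand. The sources used here do not say which of these the deposited Atp5o value covers. Atp5a1 and Atp5b, the catalytic core of complex V, averaged 90.4 and 77.98 FPKM. Within complexes, the 2 genes of highest mean were Ndufv2 and Ndufa12 of complex I, Sdha and Sdhb of complex II, Uqcrq and Uqcrc2 of complex III, Cox5a and Cox7b2 of complex IV and Atp5o and Atp5a1 of complex V, and the lowest were Ndufaf5 (1.69 FPKM), Sdhd (9.90 FPKM), Uqcr11 (11.9 FPKM), Ndufa4l2 (4.70 FPKM) and Atp5g2 (7.30 FPKM). The heart and muscle isoforms Cox6a2, Cox7a1 and Cox8b and the lung isoform Cox4i2 were not among the rows analysed here.

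**Figure D1:**
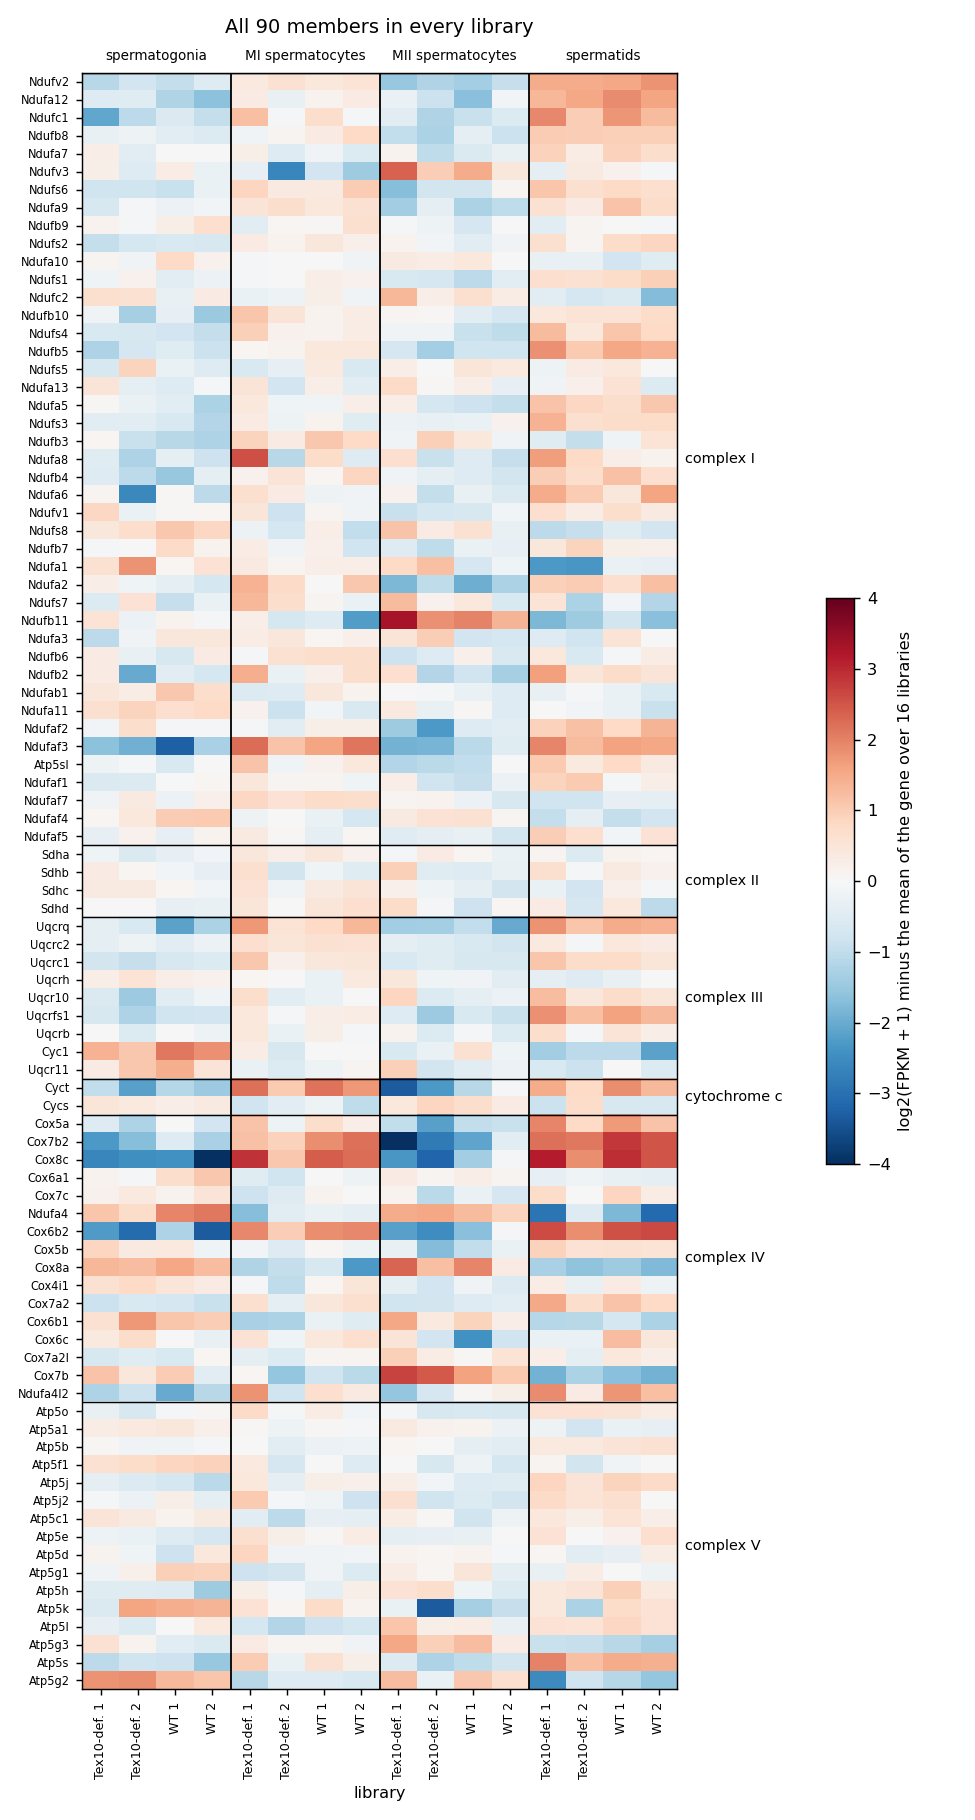
Log2(FPKM + 1) of all 90 members in each of the 16 libraries, centred on the mean of the gene, with columns grouped by cell type (Tex10-deficient libraries left of wild-type ones) and rows by complex. Testis isoforms such as Cox8c and Cox6b2 are above their mean in every MI and spermatid library and below it in every spermatogonial library, whereas Cox8a runs the other way.

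The testis isoforms were among the members that differed most between cell types. Cyct encodes the testis form of cytochrome c, the carrier between complexes III and IV. In Tex10-deficient libraries, Cyct had 14.97 and 6.03 FPKM in spermatogonia, 145 and 63.9 FPKM in MI spermatocytes, 2.12 and 5.37 FPKM in MII spermatocytes and 87.9 and 53.4 FPKM in spermatids. In wild-type libraries, Cyct had 13.2 and 10.5 FPKM in spermatogonia, 140.1 and 104 FPKM in MI spermatocytes, 13.5 and 29.04 FPKM in MII spermatocytes and 112 and 77.1 FPKM in spermatids. Both genotypes were high in MI spermatocytes and spermatids and low in the other fractions, without overlap between the high and the low libraries. Its somatic counterpart Cycs was low throughout, between 0.617 and 4.96 FPKM over the 16 libraries. Cycs is uncertain because 4 other genes, 3 of them pseudogenes, have a transcript stretch at least 95% identical to it over at least 200 bases.

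Cox6b2, the testis form of a complex IV subunit on the intermembrane side, behaved alike. In Tex10-deficient libraries, Cox6b2 had 2.31 and 0.905 FPKM in spermatogonia, 59.5 and 30.6 FPKM in MI spermatocytes, 2.51 and 1.87 FPKM in MII spermatocytes and 97.3 and 56.9 FPKM in spermatids. In wild-type libraries, Cox6b2 had 5.74 and 0.578 FPKM in spermatogonia, 56.7 and 59.3 FPKM in MI spermatocytes, 4.04 and 13.98 FPKM in MII spermatocytes and 91.3 and 99.4 FPKM in spermatids. Its high libraries were again all those of MI spermatocytes and spermatids. The somatic Cox6b1 was high in spermatogonia, with 24.8 and 54.6 FPKM in Tex10-deficient and 35.6 and 32.1 FPKM in wild-type libraries. In MI spermatocytes Cox6b1 had 5.80 and 5.92 FPKM in Tex10-deficient and 13.1 and 11.03 FPKM in wild-type libraries. No MI library reached the lowest spermatogonial value.

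Cox7b2 is the autosomal testis counterpart of the X-linked Cox7b, a small subunit of complex IV. In Tex10-deficient libraries, Cox7b2 had 11.8 and 18.3 FPKM in spermatogonia, 139.8 and 117 FPKM in MI spermatocytes, 1.51 and 7.76 FPKM in MII spermatocytes and 289 and 268 FPKM in spermatids. In wild-type libraries, Cox7b2 had 42.6 and 24.4 FPKM in spermatogonia, 227 and 283 FPKM in MI spermatocytes, 13.5 and 44.3 FPKM in MII spermatocytes and 440.2 and 358 FPKM in spermatids. The Tex10-deficient libraries lay below both wild-type libraries in each of the 4 fractions, as they did for 72 of all 13099 genes tested (0.55%) and for no other member. In Tex10-deficient libraries, Cox7b had 7.03 and 4.05 FPKM in spermatogonia, 2.85 and 0.26 FPKM in MI spermatocytes, 23.2 and 19.2 FPKM in MII spermatocytes and 0 and 0.524 FPKM in spermatids. In wild-type libraries, Cox7b had 6.50 and 1.74 FPKM in spermatogonia, 1.13 and 0.72 FPKM in MI spermatocytes, 10.2 and 6.62 FPKM in MII spermatocytes and 0.161 and 0 FPKM in spermatids. Cox7b was thus low in MI spermatocytes and spermatids, where 1 library of each genotype of spermatids listed it at 0, and high in the MII libraries. Cox7b has 2 pseudogenes at least 95% identical over at least 200 bases.

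Cox8c is the testis form of a small complex IV subunit, and Cox8a its general form. In Tex10-deficient libraries, Cox8c had 5.20 and 5.88 FPKM in spermatogonia, 279 and 79.3 FPKM in MI spermatocytes, 6.61 and 3.24 FPKM in MII spermatocytes and 331 and 138 FPKM in spermatids. In wild-type libraries, Cox8c had 6.14 and 0.502 FPKM in spermatogonia, 203 and 178 FPKM in MI spermatocytes, 13.6 and 34.7 FPKM in MII spermatocytes and 290.3 and 217 FPKM in spermatids. In Tex10-deficient libraries, Cox8a had 48.6 and 45.3 FPKM in spermatogonia, 7.52 and 9.16 FPKM in MI spermatocytes, 98.4 and 44.5 FPKM in MII spermatocytes and 7.08 and 5.42 FPKM in spermatids. The wild-type values of Cox8a were 56.9 and 45.4 FPKM in spermatogonia, 11.6 and 3.04 FPKM in MI spermatocytes, 75.4 and 23.9 FPKM in MII spermatocytes and 6.27 and 4.80 FPKM in spermatids. Cox8c and Cox8a were high in opposite fractions.

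**Figure D2:**
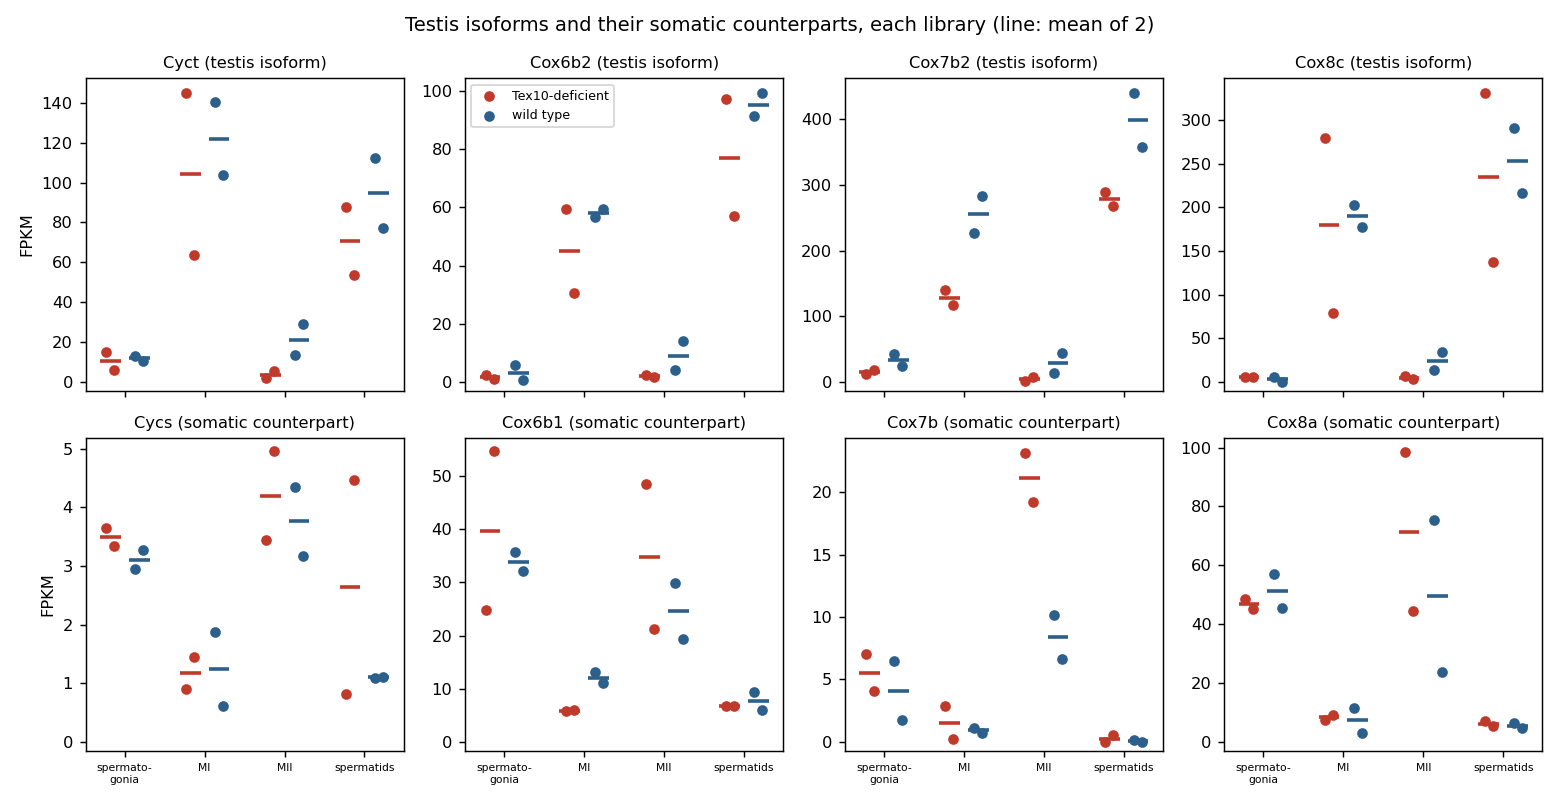
FPKM of each testis isoform (top) and its somatic counterpart (bottom) in every library, by cell type, with Tex10-deficient libraries left of wild-type ones and a line at the mean of 2 libraries. The testis isoforms peak in MI spermatocytes and spermatids, and Cox7b2 is lower in the Tex10-deficient libraries of all 4 cell types.

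Expressed as a share of the FPKM of a pair, the testis isoform made up most of each pair in MI spermatocytes. Cox8c made up 97.4% and 89.6% of Cox8c and Cox8a in Tex10-deficient and 94.6% and 98.3% in wild-type MI libraries, against 9.67% and 11.5% in Tex10-deficient and 9.73% and 1.09% in wild-type spermatogonia. Cox6b2 made up 91.1% and 83.8% of Cox6b2 and Cox6b1 in Tex10-deficient and 81.3% and 84.3% in wild-type MI libraries, against 8.51% and 1.63% in Tex10-deficient and 13.9% and 1.77% in wild-type spermatogonia. The other pairs differed in that the testis isoform already led in spermatogonia. Cyct made up 80.4% and 64.3% of its pair in Tex10-deficient and 81.8% and 76.2% in wild-type spermatogonia, and Cox7b2 made up 62.6% and 81.9% of its pair in Tex10-deficient and 86.8% and 93.4% in wild-type spermatogonia. The somatic partners here, Cycs and Cox7b, are those with near-identical pseudogenes. Spermatocyte markers summed to 176 to 354 FPKM in Tex10-deficient and 262 to 298 FPKM in wild-type spermatogonia, and their part in these shares was not tested. Together the 4 testis isoforms made up 13.2% to 17.6% of the FPKM of all members in Tex10-deficient and 20.5% to 20.9% in wild-type MI spermatocytes, and 15.7% to 18.3% in Tex10-deficient and 19.5% to 21.2% in wild-type spermatids. In Tex10-deficient spermatogonia they made up 1.52% to 1.63%, against 1.63% to 2.97% in wild-type spermatogonia. The MII libraries stood apart, with 0.522% and 1.05% in Tex10-deficient and 2.41% and 6.99% in wild-type ones. There Cyct made up 38.1% and 51.98% of its pair in Tex10-deficient and 75.6% and 90.1% in wild-type libraries, and Cox7b2 6.13% and 28.8% in Tex10-deficient and 57.1% and 87% in wild-type libraries. Cox6b2 made up 4.92% and 8.12% in Tex10-deficient and 11.9% and 41.9% in wild-type MII libraries, and Cox8c 6.29% and 6.78% in Tex10-deficient and 15.3% and 59.2% in wild-type MII libraries. All 4 shares were lower in both Tex10-deficient MII libraries than in both wild-type ones. Of all genes tested, 18.0% had a lower level in both Tex10-deficient MII libraries. Summed spermatocyte markers were lower there too (71.6 and 122 FPKM in Tex10-deficient, 156 and 466 FPKM in wild-type MII libraries), and their part was not tested.

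The first step of the wild-type series set MI spermatocytes against spermatogonia. By limma with Benjamini-Hochberg adjustment over 13099 genes, 38 of 90 members changed, 26 rising and 12 falling, where 51.9% of all genes tested were called (26.3% rising and 25.7% falling). The share of members called was therefore below that of all genes. The median log2 change of members was 0.31, and that of all genes −0.07. All 4 testis isoforms rose, Cox8c by 5.86 (SE 0.71, adjusted p = 1.8e-05), Cox6b2 by 4.18 (SE 0.61, adjusted p = 9.2e-05), Cyct by 3.25 (SE 0.51, adjusted p = 0.00016) and Cox7b2 by 2.94 (SE 0.55, adjusted p = 0.00062) on the log2(FPKM + 1) scale, on which the change of low genes is understated. All log2 changes below are on this scale. The immune markers that were high in spermatogonia were near their lowest in these MI libraries (2.03 to 2.54 FPKM).

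Among complex I subunits, 11 of 36 rose and 2 fell. Ndufb3, an accessory subunit of the membrane arm, had 24.1 and 19.4 FPKM in wild-type MI spermatocytes, against 4.44 and 4.02 FPKM in wild-type spermatogonia, a log2 change of 2.12 (SE 0.43, adjusted p = 0.0011). Ndufa12, an accessory subunit of the matrix arm, had 56.8 and 63.98 FPKM, against 21.4 and 15.6 FPKM in spermatogonia (1.67, adjusted p = 0.0041). Neither gene overlapped between the fractions, and each has 1 pseudogene at least 95% identical over at least 200 bases. Ndufv2, a core subunit with an iron-sulfur cluster and the most abundant complex I gene, had 102 and 112 FPKM in MI spermatocytes, against 39.4 and 52.7 FPKM in spermatogonia (1.21, adjusted p = 0.002). The falls were the core subunit Ndufs8 (−1.32) and the accessory subunit Ndufa11 (−1.08).

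Of the 7 complex I assembly factors, Ndufaf3 rose and Ndufaf4 fell. These are known to act together in early complex I assembly. Ndufaf3 had 44.2 and 66.6 FPKM in wild-type MI spermatocytes, against 0.581 and 5.24 FPKM in wild-type spermatogonia, a log2 change of 4.14 (SE 0.53, adjusted p = 2.9e-05). Ndufaf4 had 2.30 and 1.45 FPKM in MI spermatocytes, against 7.02 and 7.18 FPKM in spermatogonia, a log2 change of −1.51 (SE 0.32, adjusted p = 0.0013). Thus the 2 factors moved apart, with no overlap of the fractions for either. Ndufaf3 shares 2.64% of its exon bases with Impdh2 on the opposite strand, and the sources used here do not say whether counting used strand.

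Complex II, which also works in the citric acid cycle, had 0 of 4 subunits called by limma (0 at an unadjusted p under 0.05). In complex III, 4 of 9 subunits rose and 1 fell. Uqcrq, a small subunit known as the ubiquinone-binding protein, had 68.5 and 98.96 FPKM in wild-type MI spermatocytes, against 8.05 and 15.4 FPKM in wild-type spermatogonia, a log2 change of 2.77 (SE 0.44, adjusted p = 0.00016). The other rises were those of Uqcrfs1, the Rieske iron-sulfur protein (1.07), and of Uqcrc1 and Uqcrc2, the core proteins (1.06 and 0.92). Cyc1, the cytochrome c1 subunit that hands electrons to cytochrome c, had 11.3 and 11.4 FPKM in MI spermatocytes, against 51.3 and 41.96 FPKM in spermatogonia, a log2 change of −1.94 (SE 0.40, adjusted p = 0.0013). Neither Uqcrq nor Cyc1 overlapped between the fractions.

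Complex IV without its testis isoforms had 2 of 13 rises and 4 falls. Cox8a and Cox6b1 fell, with log2 changes of −2.86 (SE 0.55, adjusted p = 0.0007) and −1.42 (SE 0.41, adjusted p = 0.01). Ndufa4, a subunit first assigned to complex I, had 28.6 and 25.8 FPKM in wild-type MI spermatocytes, against 136 and 152 FPKM in wild-type spermatogonia (−2.36, adjusted p = 0.006). The fourth fall was that of Cox6a1 (−0.99), the general form of a subunit whose other form belongs to heart and muscle. Ndufa4l2, a relative of Ndufa4 known as a hypoxia-induced gene, and Cox7a2 rose (2.07 and 1.31), Ndufa4l2 from low levels of 0 and 0.898 FPKM in spermatogonia. Cox4i1, the regulatory subunit, had a log2 change of −0.13 and was not called (adjusted p = 0.77).

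Complex V had 4 of 16 rises and 4 falls. Atp5g1 and Atp5g2, genes for the identical mature c subunit of the rotor ring, fell (−1.30 and −1.76), whereas Atp5g3, which encodes the same subunit, had a log2 change of 0.48 (adjusted p = 0.24). The catalytic genes Atp5a1 and Atp5b had log2 changes of −0.34 and −0.09 and were not called. Atp5g1 and Atp5g2 each have pseudogenes at least 95% identical over at least 200 bases. The other falls were those of the stalk subunit Atp5f1 (−1.15) and of Atp5l (−0.98), and the rises were those of Atp5s, a factor related to the synthase (1.58), Atp5j (1.11), Atp5h (0.91) and Atp5e (0.77). Of the X-linked members, 0 of 3 were called (2 at an unadjusted p under 0.05), with log2 changes of −1.24 for Cox7b, −1.43 for Ndufb11 and −0.07 for Ndufa1.

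Some of these calls rested on single libraries. Without wild-type MI library 2, 21 members were called (15 rising and 6 falling), and of the 20 members named by rule in this step 13 kept their call whichever library was left out. Without that library, limma adjusted p was 0.155 for Atp5f1, 0.0659 for Atp5g2, 0.0677 for Cox6b1, 0.203 for Ndufa11, 0.064 for Ndufa4l2 and 0.257 for Ndufs8. The same 6 genes missed the threshold without wild-type spermatogonial library 1 (0.0558 to 0.148). Without wild-type spermatogonial library 2, Atp5f1, Ndufa11 and Atp5s missed it (0.0762 to 0.118), and without wild-type MI library 1, Atp5s and Ndufa4l2 (0.0528 and 0.0896). Quantile normalization, under which the median of all genes was −0.25, gave 15 rises and 19 falls in place of 26 and 12.

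**Figure D3:**
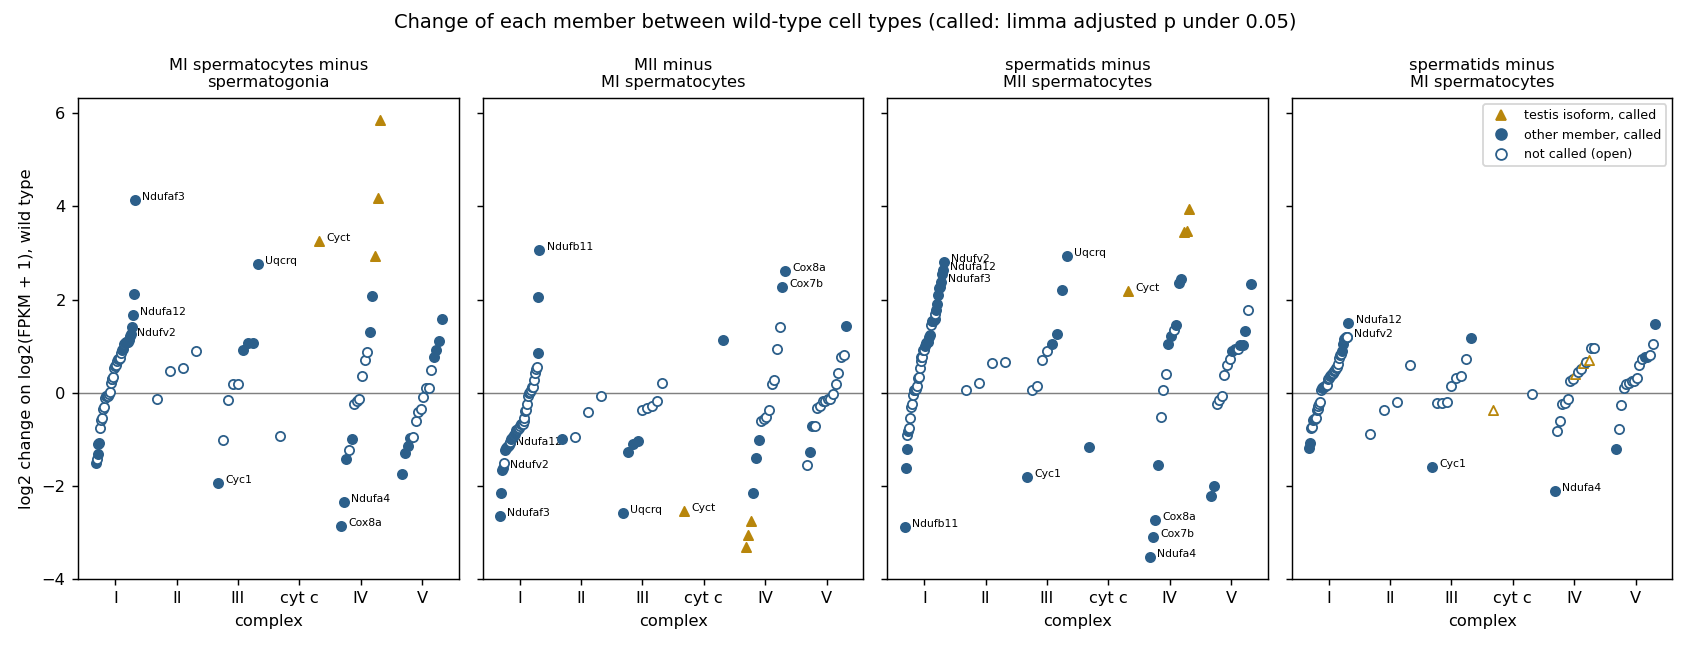
Log2 change on log2(FPKM + 1) of each member (1 symbol per gene) by complex, in 4 comparisons of wild-type cell types, with filled symbols for members called by limma and triangles for testis isoforms. In MI spermatocytes minus spermatogonia the 4 testis isoforms lie between 2.94 and 5.86, a range that also holds the assembly factor Ndufaf3 at 4.14.

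Wild-type spermatids, set against wild-type MI spermatocytes, differed less. By limma, 14 of 90 members changed, 9 rising and 5 falling, where 42.3% of all genes tested were called (22.6% rising and 19.8% falling), so the share of members called was again below that of all genes. The median log2 change of members was 0.27, and that of all genes −0.01. None of the 4 testis isoforms was called by limma (0 at an unadjusted p under 0.05), with log2 changes of 0.71 for Cox6b2, 0.65 for Cox7b2, 0.40 for Cox8c and −0.37 for Cyct. Summed elongating spermatid markers, 10409 to 12385 FPKM in these spermatids, against 77.4 to 112 FPKM in wild-type MI spermatocytes, moved with these changes, and their part in them was not tested.

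The rises were those of 5 complex I subunits (Ndufa12, Ndufv2, Ndufa7, Ndufb5 and Ndufs3), of the Rieske protein Uqcrfs1 and of Atp5l, Atp5c1 and Atp5b of complex V. Ndufv2 had 224 and 269.5 FPKM in wild-type spermatids, against 102 and 112 FPKM in wild-type MI spermatocytes, a log2 change of 1.19 (SE 0.27, adjusted p = 0.0028). Atp5l, a subunit near the membrane base of the synthase, had 19.7 and 16.3 FPKM, against 5.55 and 6.04 FPKM in MI spermatocytes (1.48, adjusted p = 0.0026). The spermatids lay above the MI libraries without overlap for both. Atp5l has 11 other genes, 9 of them pseudogenes, at least 95% identical over at least 200 bases.

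The falls were those of Ndufa4, Cyc1, Atp5g3, Ndufc2 and Ndufaf7. Ndufa4 had 9.16 and 3.10 FPKM in wild-type spermatids, against 28.6 and 25.8 FPKM in wild-type MI spermatocytes, a log2 change of −2.13 (SE 0.62, adjusted p = 0.014). Cyc1 had 4.91 and 1.79 FPKM, against 11.3 and 11.4 FPKM in MI spermatocytes, a log2 change of −1.60 (SE 0.40, adjusted p = 0.0057). The spermatid libraries lay below the MI libraries for both genes. Ndufc2 is an accessory subunit of the membrane arm (−1.20) and Ndufaf7 a methyltransferase needed for complex I assembly (−1.08).

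With the replicate number as a block within each genotype, 22 members were called (16 rising and 6 falling), among 6196 of all genes. Of the 14 calls made without the block, 2 (Ndufv2 and Atp5l) held without any 1 library. The count of called members was 5 without wild-type MI library 1, 6 without wild-type MI library 2, 8 without wild-type spermatid library 1 and 4 without wild-type spermatid library 2. Without wild-type spermatid library 2, all 5 falls missed the threshold, with limma adjusted p of 0.15 for Ndufa4, 0.0913 for Cyc1, 0.0678 for Atp5g3, 0.296 for Ndufc2 and 0.0545 for Ndufaf7, as did the rises of Atp5b, Atp5c1, Ndufa7, Ndufb5 and Ndufs3 (0.0575 to 0.145). Without wild-type spermatid library 1, the rises other than Ndufv2 and Atp5l missed it (0.0644 to 0.209). Without a wild-type MI library, adjusted p of the members that missed it lay between 0.0505 and 0.294, and for Ndufa4 it was 0.0709 without library 1 and 0.0505 without library 2. Atp5c1 and Ndufs3 also missed it, at up to 0.0586, without a spermatogonial library or, for Ndufs3, a Tex10-deficient MII library. Quantile normalization, under which the median of all genes was −0.17, gave 0 rises and 10 falls among members in place of 9 and 5, and Atp5b then had a log2 change of −0.15.

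The wild-type MII libraries, set against the wild-type MI libraries, had 35 of 90 members called by limma, 7 higher and 28 lower, where 57.2% of all genes tested were called (30.0% higher and 27.2% lower). Members had a median log2 change of −0.55, and all genes one of 0.05. The Leydig, Sertoli, immune and myoid markers that were high in the MII libraries moved with each of these differences, as did the elongating spermatid markers (698 to 766 FPKM in wild-type MII, against 77.4 to 112 FPKM in wild-type MI libraries, with log2 changes of 4.55 for Prm2 and 3.20 for Tnp1), and their part was not tested. All 4 testis isoforms were lower, with log2 changes of −3.31 for Cox7b2, −3.06 for Cox8c, −2.76 for Cox6b2 and −2.54 for Cyct. Ndufaf3 and Uqcrq, which had risen in the step before, fell (−2.65 and −2.58). In complex II, 1 of 4 subunits was called, the membrane anchor subunit Sdhc, with 18.4 and 14.2 FPKM in wild-type MII and 31.6 and 35.4 FPKM in wild-type MI libraries (−1.01, adjusted p = 0.01). Sdhc missed the threshold without MI library 2 (limma adjusted p = 0.0676) and without MII library 2 (0.0612).

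The members higher in the MII libraries were Ndufb11 (3.06), Cox8a (2.61), Cox7b (2.27), Ndufv3 (2.05), Atp5g2 (1.44), Cycs (1.13) and Ndufaf4 (0.84). The X-linked Ndufb11, an accessory complex I subunit, had 17.8 and 11.2 FPKM in wild-type MII spermatocytes, against 2.30 and 0 FPKM in wild-type MI spermatocytes, where 1 library listed it at 0. Its exons overlap those of Rbm10 on the opposite strand over 12.9% of their bases, and it has 1 pseudogene at least 95% identical. The third X-linked member, Ndufa1, had 4.16 and 6.37 FPKM in MII libraries, against 8.92 and 8.78 FPKM in MI libraries, and was not called (adjusted p = 0.13). The count of called members was 21 without wild-type MII library 1 and 21 without wild-type MI library 2, and without MII library 1 limma adjusted p was 0.149 for Atp5g2, 0.175 for Cycs, 0.22 for Ndufaf4 and 0.12 for Ndufv3. Without MI library 2 it was 0.117 for Atp5g2, 0.294 for Cycs, 0.215 for Ndufaf4 and 0.101 for Ndufv3, and without MI library 1 it was 0.0821 for Atp5g2. Cycs also missed the threshold without MII library 2, without a wild-type spermatid library or without a spermatogonial library (0.0503 to 0.0567).

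In wild-type spermatids against wild-type MII libraries, 50 of 90 members were called by limma, 38 higher and 12 lower, where 73.8% of all genes tested were called (38.8% higher and 35.0% lower). The median log2 change was 0.90 for members and 0.11 for all genes. The largest rises besides the testis isoforms were those of Uqcrq (2.94), Ndufv2 (2.81) and Ndufa12 (2.63), and the largest falls those of Ndufa4 (−3.53), Cox7b (−3.10), Ndufb11 (−2.88) and Cox8a (−2.75). All 20 members named by rule in this step kept their call without any 1 library. Complex II had 0 of 4 subunits called (0 at an unadjusted p under 0.05). Quantile normalization, under which the median of all genes was 0.20, gave 25 rises and 14 falls in place of 38 and 12.

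Genes that serve the respiratory chain from outside the set were read from lists of related genes. Of 41 listed assembly factors and associated proteins of the complexes, 4 rose and 12 fell in wild-type MI spermatocytes against spermatogonia. Of all genes, 26.3% rose and 25.7% fell. The falls of 12 in 41 were thus near the share of all genes, and the rises were fewer than that share gives. Usmg5, a small protein tied to the synthase, had 4.68 and 5.51 FPKM in MI spermatocytes, against 16.96 and 26.9 FPKM in spermatogonia (−1.88). The assembly factor Ecsit fell (−1.40), and Coa4, a complex IV assembly factor, rose (2.05). In wild-type spermatids against MI spermatocytes 10 of the 41 listed genes rose and 10 fell, near the 22.6% and 19.8% of all genes. Of the 6 genes listed for complex V, 4 were higher and 0 lower. Atpif1, which inhibits ATP hydrolysis by the synthase, had 113 and 71.9 FPKM in spermatids, against 32.4 and 33.9 FPKM in MI spermatocytes (1.41, adjusted p = 0.0054).

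Of the 8 regulators of respiratory genes in the table, 0 rose and 2 fell in MI spermatocytes against spermatogonia (26.3% and 25.7% of all genes). Nrf1, whose product binds the motif searched above, had 6.99 and 5.44 FPKM in wild-type MI spermatocytes, against 16.03 and 15.6 FPKM in wild-type spermatogonia, a log2 change of −1.23 (SE 0.27, adjusted p = 0.0019). Polrmt, the mitochondrial RNA polymerase, fell too (−1.08). In spermatids, Tfam, which packages mitochondrial DNA, had 21.6 and 13.9 FPKM, against 0.807 and 0.643 FPKM in MI spermatocytes, a log2 change of 3.41 (SE 0.43, adjusted p = 2.7e-05). Tfb1m, a mitochondrial rRNA methyltransferase, rose as well (1.84). Esrra, Ppargc1a and Ppargc1b were not among the rows analysed here.

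Of 15 genes of pyruvate dehydrogenase and the citric acid cycle, 6 rose and 4 fell in MI spermatocytes against spermatogonia, where 26.3% of all genes rose and 25.7% fell, so that the falls were near the share of all genes and the rises above it; with 15 genes no test of this was made. Pdha2, the autosomal testis form of the E1 alpha subunit of pyruvate dehydrogenase, had 99.6 and 83.6 FPKM in wild-type MI spermatocytes, against 4.94 and 3.65 FPKM in wild-type spermatogonia, a log2 change of 4.13 (SE 0.44, adjusted p = 5.8e-06). Its X-linked counterpart Pdha1 had 3.93 and 1.36 FPKM, against 5.63 and 4.67 FPKM in spermatogonia, and was not called (−0.85, adjusted p = 0.16). Pdha2 moved in the direction of the testis isoforms of the chain. Among the 4 carriers that exchange ADP for ATP or import phosphate, the phosphate carrier Slc25a3 fell (−0.86). Slc25a31, the germ cell ADP/ATP carrier, had 43.6 and 28.7 FPKM in MI spermatocytes, against 40.3 and 43.2 FPKM in spermatogonia, and was not called.

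The same cell type comparisons within the Tex10-deficient libraries were added after the wild-type results had been seen. They share no library with the wild-type comparisons, but both come from the same fit of all 16 libraries. Each gene has a single spread estimate in that fit, so the calls of the genotypes are not independent. In Tex10-deficient MI spermatocytes against Tex10-deficient spermatogonia 38 of 90 members were called, where 51.2% of all genes tested were called. Of these, 26 were also called in the wild type, all 26 in the same direction, which is 68.4% of the calls of either genotype. All 38 wild-type calls had the same sign in the Tex10-deficient libraries. No share of all genes with shared calls or signs is given. This agreement, and that in the next comparisons, is therefore not read as particular to the members. Cox8c rose by 4.52, Cox6b2 by 4.12, Cyct by 3.20 and Cox7b2 by 3.04 there, and Cox8a, Ndufa4 and Cyc1 fell (−2.36, −1.98 and −1.42).

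For spermatids against MI spermatocytes, 17 members were called in the Tex10-deficient libraries, where 42.4% of all genes tested were called, and 9 were called in both genotypes in the same direction (52.9% of the Tex10-deficient and 64.3% of the wild-type calls). All 14 wild-type calls had the same sign in Tex10-deficient libraries. For MII against MI spermatocytes, 39 members were called in Tex10-deficient libraries, where 61.7% of all genes tested were called, and 24 in both genotypes in the same direction. Atp5j and Ndufa3 differed in sign between the genotypes. For spermatids against MII spermatocytes, 53 were called in Tex10-deficient libraries, where 75.7% of all genes tested were called, and 39 in both in the same direction. There Ndufa3 was called in both in opposite directions, with a log2 change of −1.40 in Tex10-deficient and 0.997 in wild-type libraries, and Atp5h and Cox6c differed in sign.

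**Figure D4:**
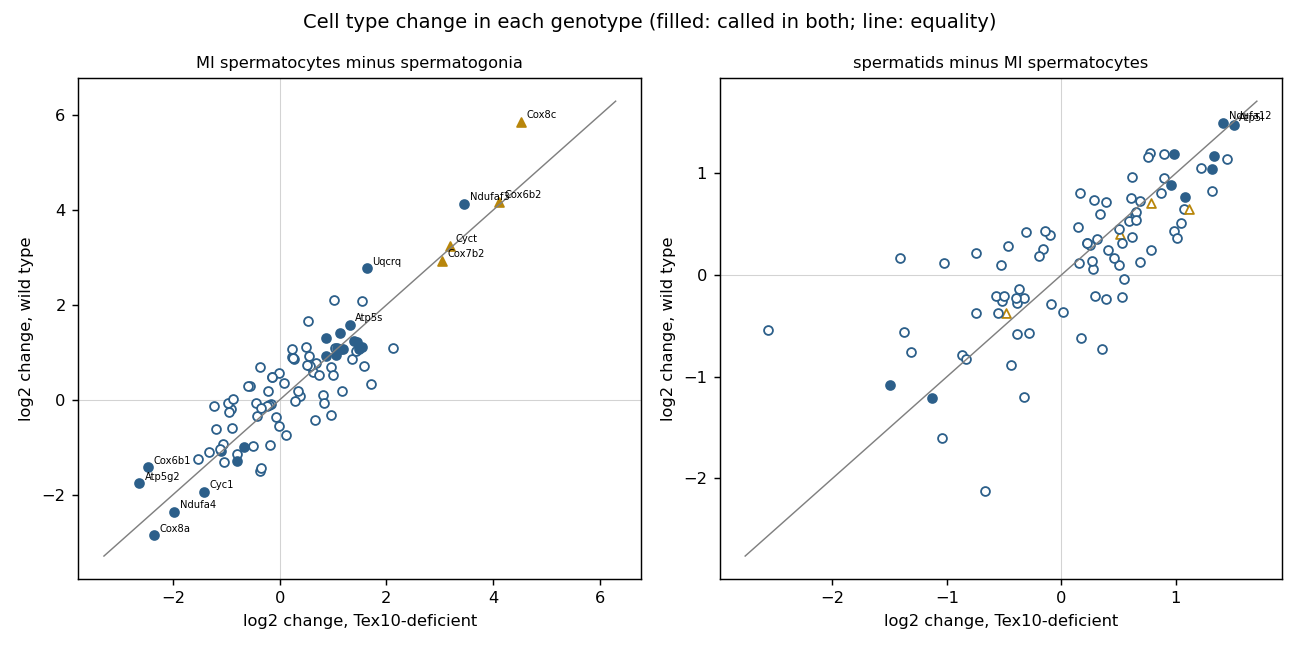
Log2 change of each member in Tex10-deficient libraries (horizontal) against that in wild-type libraries (vertical), for MI spermatocytes minus spermatogonia and for spermatids minus MI spermatocytes, with filled symbols for members called in both genotypes and a line of equality. The testis isoforms lie at the upper right of the first panel, between 3.04 and 4.52 in Tex10-deficient and between 2.94 and 5.86 in wild-type libraries.

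The comparison of the genotypes within each cell type called few genes of any kind. In Tex10-deficient against wild-type spermatogonia, limma called 0 of 90 members (8 at an unadjusted p under 0.05, against 6.6% of all genes), where 0.0153% of all genes tested were called. In MI spermatocytes it called 0 of 90 (4 at an unadjusted p under 0.05, against 5.84% of all genes), where 0.168% of all genes tested were called. In the MII libraries it called 0 of 90 (13 at an unadjusted p under 0.05, against 13.3% of all genes), where 0.00763% of all genes tested were called. In spermatids it called 0 of 90 (4 at an unadjusted p under 0.05, against 2.17% of all genes), where 0.0% of all genes tested were called. The median log2 change of members was 0.04 in spermatogonia, −0.02 in MI spermatocytes, 0.23 in MII libraries and −0.07 in spermatids, and that of all genes between −0.018 and −0.0028. With Tex10-deficient libraries grouped by the cell type field in place of the title, which puts 6 of them with another cell type, 14 members (and 3241 of all genes) were called in MI spermatocytes and 35 members (and 4899 of all genes) in MII libraries. Libraries of the genotypes that did not overlap were common: this held for 42 of 90 members in spermatogonia, 24 in MI spermatocytes, 36 in MII libraries and 28 in spermatids, and for 36.4%, 34.0%, 35.3% and 27.5% of all genes tested in the same order. A p that misses the threshold with 2 libraries per group does not show that members were alike between the genotypes.

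In spermatogonia the smallest p among members was that of Cox6a1, which had 86.05 and 74.2 FPKM in Tex10-deficient and 127 and 168 FPKM in wild-type libraries, a log2 change of −0.86 (SE 0.25, adjusted p = 0.4). Ndufa3, an accessory subunit of complex I, had 2.11 and 4.87 FPKM in Tex10-deficient and 7.86 and 7.79 FPKM in wild-type spermatogonia (−1.05, adjusted p = 0.47). Atp5g1 had 16.7 and 21.1 FPKM in Tex10-deficient and 36.7 and 36.1 FPKM in wild-type spermatogonia (−0.92, adjusted p = 0.54). The genotypes did not overlap for these genes, and none passed the threshold. The difference of Ndufa3 was −0.59 without Tex10-deficient spermatogonial library 1 and −1.51 without library 2.

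In MI spermatocytes the smallest p was that of Ndufab1, the mitochondrial acyl carrier protein, with 1.79 and 1.84 FPKM in Tex10-deficient and 4.58 and 3.43 FPKM in wild-type libraries, a log2 change of −0.82 (SE 0.28, adjusted p = 0.56). Ndufab1 has 2 pseudogenes at least 95% identical over at least 200 bases. Cox4i1 had 26.7 and 13.2 FPKM in Tex10-deficient and 29.4 and 39.6 FPKM in wild-type MI libraries (−0.82, adjusted p = 0.8). Ndufb8, an accessory subunit of the membrane arm of complex I, had 35.8 and 42.8 FPKM in Tex10-deficient and 50.5 and 70.2 FPKM in wild-type MI libraries (−0.59, adjusted p = 0.82). The genotypes did not overlap for these genes. The difference of Cox4i1 was −1.30 without Tex10-deficient MI library 1 and −0.34 without library 2, and that of Ndufb8 −0.36 without wild-type MI library 2. Summed elongating spermatid markers were 170 to 218 FPKM in these Tex10-deficient and 77.4 to 112 FPKM in these wild-type libraries, and their part was not tested. The Tex10-deficient MI libraries stood apart from each other, with member sums of 3535 FPKM in library 1 and 2204 FPKM in library 2.

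In spermatids Ndufa1, an X-linked accessory subunit needed for complex I assembly, showed the largest difference. It had 0.668 and 0.625 FPKM in Tex10-deficient and 5.90 and 5.61 FPKM in wild-type spermatids, a log2 change of −2.04 (SE 0.36, adjusted p = 0.18). Both Tex10-deficient libraries were below the wild-type ones, and with a pseudocount of 0.1 in place of 1 the difference was −2.97 (limma adjusted p = 0.035). Ndufa3 came next, with 3.48 and 2.74 FPKM in Tex10-deficient and 8.34 and 5.35 FPKM in wild-type spermatids (−0.91, adjusted p = 1; −0.63 without wild-type spermatid library 1). Ndufaf1, a complex I assembly factor, went the other way, with 12.6 and 14.2 FPKM in Tex10-deficient and 6.14 and 7.79 FPKM in wild-type spermatids (0.86, adjusted p = 1). Summed elongating spermatid markers moved with these differences, at 5779 and 7181 FPKM in Tex10-deficient and 10409 and 12385 FPKM in wild-type spermatids. Their log2 differences were −1.29 for Tnp1 and −1.41 for Tnp2 (limma adjusted p = 0.71 and 1), −1.25 for Prm1 and −1.255 for Prm2. Odf1 (0.13) and Smcp (0.072) did not go down. The part of these markers was not tested. The level of Ndufa1 in the other fractions was 11.6 and 27.4 FPKM in Tex10-deficient and 7.72 and 11.2 FPKM in wild-type spermatogonia, and 9.55 and 7.93 FPKM in Tex10-deficient and 8.92 and 8.78 FPKM in wild-type MI spermatocytes. In MII libraries it had 13.2 and 17.98 FPKM in Tex10-deficient and 4.16 and 6.37 FPKM in wild-type libraries, a log2 change of 1.41 (SE 0.36, adjusted p = 0.1). In a limma F test of whether the genotype difference varies between cell types, 0 of 90 members were called (7 at an unadjusted p under 0.05, against 6.49% of all genes), where 0.0% of all genes tested were called, and Ndufa1 had the smallest adjusted p (0.16), followed by Ndufa3 (0.32), Cox6c (0.66), Ndufaf2 (0.67) and Ndufab1 (0.71). Without wild-type MII library 1 the F test called 255 of all genes and, among members, Ndufa1 alone. Spermatid library 2 of the Tex10-deficient mice had a Leydig marker sum of 199 FPKM, the highest outside the MII libraries. In library 1 this sum was 16.2 FPKM, and the part of Leydig cells in the spermatid differences was not tested.

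In the MII libraries the members of smallest p were Cox7b2, with 1.51 and 7.76 FPKM in Tex10-deficient and 13.5 and 44.3 FPKM in wild-type libraries (−2.45, adjusted p = 0.079), Ndufa3, with 8.20 and 11.7 FPKM in Tex10-deficient and 2.81 and 2.91 FPKM in wild-type libraries (1.49, adjusted p = 0.079), and Cyct (−2.23, adjusted p = 0.083). All 4 testis isoforms were lower in both Tex10-deficient MII libraries than in both wild-type ones, as were 18.0% of all genes tested, and none was called. The difference of Cox7b2 was −1.55 without Tex10-deficient MII library 1 and −3.35 without library 2. Summed spermatocyte markers moved with them, at 71.6 to 122 FPKM in Tex10-deficient and 156 to 466 FPKM in wild-type MII libraries, as did round spermatid markers at 20.5 to 31.8 FPKM in Tex10-deficient and 40.5 to 145 FPKM in wild-type MII libraries. Elongating spermatid markers (320 and 601 FPKM in Tex10-deficient and 698 and 766 FPKM in wild-type MII libraries) and immune markers (197 and 254 FPKM in Tex10-deficient and 255 and 476 FPKM in wild-type MII libraries) were lower in both Tex10-deficient libraries too, and the part of these markers in the result was not tested. Calls came and went with the settings, and 5 members, among 190 of all genes, were called with quantile normalization (Cox7b2, Cyct, Ndufa1, Ndufa3 and the assembly factor Ndufaf2, of whose exon bases 65.7% overlap a transcript on the opposite strand). Without wild-type MII library 1, 4 members among 1253 of all genes were called (Cox7b2, Cyct, Ndufa3 and Ndufaf2), and without Tex10-deficient MII library 2, 2 among 237 were called (Cox7b2 and Cyct). With the replicate number as a block, 4 members among 268 of all genes were called (Cox7b2, Cyct, Ndufa1 and Ndufa3).

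**Figure D5:**
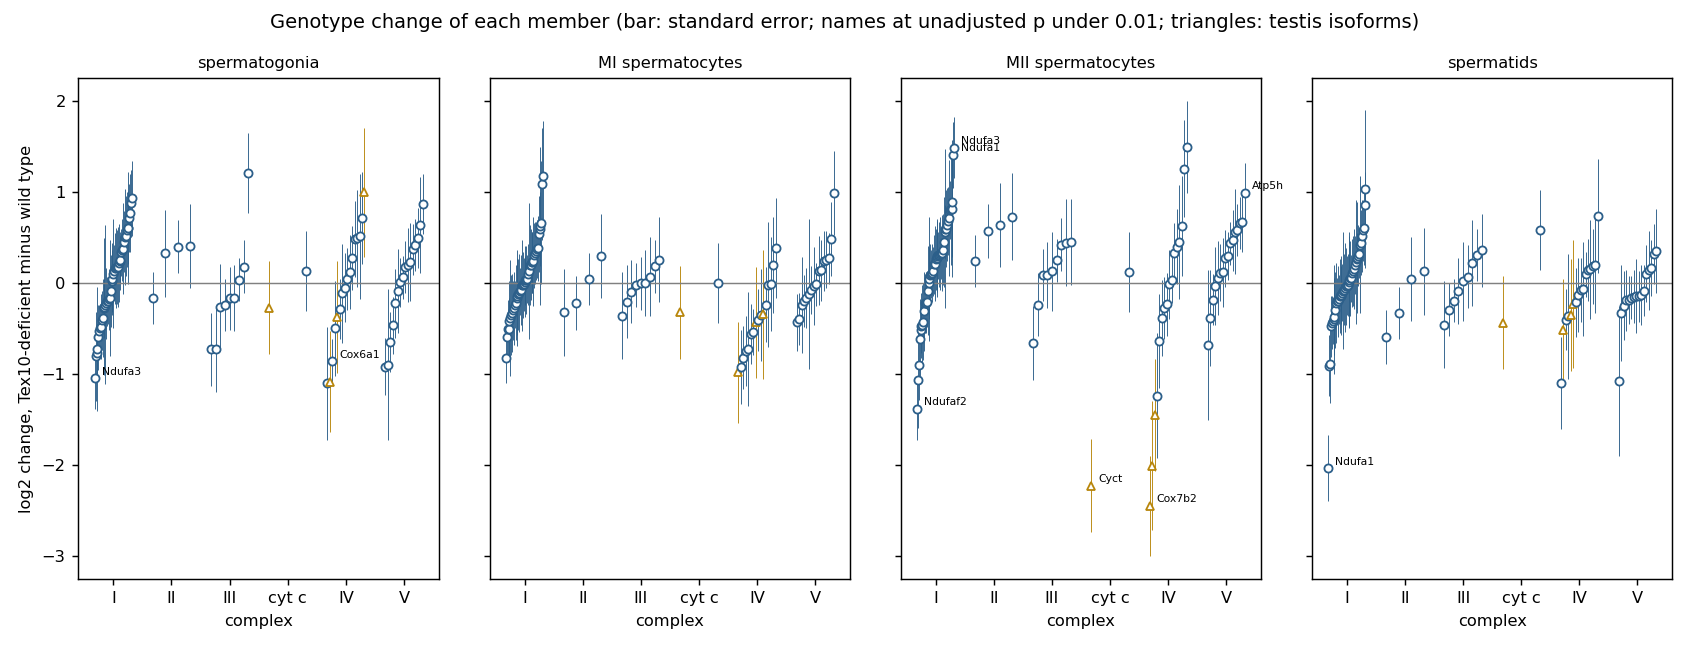
Log2 change, Tex10-deficient minus wild type, of each member by complex in the 4 cell types, with bars for the standard error, triangles for testis isoforms and names at an unadjusted p under 0.01. No member was called by limma, and the testis isoforms lie lowest in the panel of the MII libraries, between −2.45 and −1.45.

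Averaged over the 4 cell types, limma called 0 of 90 members (7 at an unadjusted p under 0.05, against 11.0% of all genes), where 0.0992% of all genes tested were called. The members of smallest p were Cox7b2, with a log2 change of −1.26 (SE 0.28, adjusted p = 0.12), and Cyct, with −0.81 (SE 0.26, adjusted p = 0.25). Atp5g3, Cox6a1 and Ndufaf2 followed, with log2 changes of 0.47, −0.32 and −0.39 and adjusted p of 0.3, 0.37 and 0.43. The 4 testis isoforms all had a negative average, and among the other 86 members 44 had a positive and 42 a negative one. Of the testis isoforms, Cox8c had a log2 change of 0.998 in spermatogonia and −2.01 in MII libraries. Averages of the 8 spermatocyte markers ran from −0.82 for Sycp3 to 0.0034 for Ldhc, the only positive one, and their part was not tested. Cox7b2 was called by limma (−1.46, adjusted p = 0.00765) without wild-type MII library 1 and (−1.48, adjusted p = 0.0447) without Tex10-deficient MII library 2.

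The ratio of each testis isoform to its somatic counterpart was tested over all cell types by an exact permutation test, two-sided, with genotype labels permuted within cell types (1296 arrangements, smallest possible p 0.001543), and p-values were adjusted over the 4 pairs. The log2 ratio of Cox7b2 to Cox7b was lower in Tex10-deficient libraries, with a mean difference of −1.79, made up of −1.58 in spermatogonia, −1.18 in MI spermatocytes, −3.71 in MII libraries and −0.71 in spermatids. The exact permutation p was 0.001543, the smallest the test can give, and 0.00617 after adjustment over the 4 pairs. Cox7b, the denominator, was at or below 2.85 FPKM in every MI and spermatid library. With a pseudocount of 0.1 the mean was −2.02 with an adjusted exact permutation p of 0.0679. Without the MII libraries it was −1.16 with an adjusted exact permutation p of 0.037.

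For Cyct over Cycs the mean was −1.02, with an exact permutation p of 0.043 and an adjusted p of 0.086. Without Tex10-deficient spermatogonial library 1, MI library 1 or spermatid library 1, its adjusted exact permutation p was 0.046, 0.031 or 0.028. Cox6b2 over Cox6b1 had a mean of −0.52 and Cox8c over Cox8a a mean of −0.66, each with an adjusted exact permutation p of 0.33. Both rested largely on the MII libraries: without wild-type MII library 2 the means were −0.25 and −0.29, and without wild-type MII library 1 they were −0.79 and −1.02. Without the MII libraries the mean of Cox8c over Cox8a was 0.000752. Of the 4 pairs, only Cox7b2 over Cox7b passed the threshold, and whether it differs from the other pairs was not tested.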

How the data were processed

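The deposited table holds FPKM made by the authors for 16 polyA-enriched libraries from total RNA extracted with Trizol. The submitters' processing notes name Cufflinks 2.2.1, STAR 2.7.6a, cutadapt, Trim Galore 0.6.3, FastQC 0.10.1 and the build mm10. The deposited values had a minimum of 1, so 1 was subtracted to give the FPKM printed here, of which 3.33% were 0. The sources used here do not mention any further scaling by the authors. FPKM keep no read counts, so depth is unknown and no counting interval is given. Totals ran between 187713 and 533859 FPKM per library. No annotation is named, and gene positions were taken from GENCODE M21 (GRCm38).

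Of 13101 genes, 13100 were used and 13099 had at least 1 FPKM in at least 2 libraries. These were fitted by limma 3.58.1 (R 4.3.3; lmFit, eBayes with trend) on log2(FPKM + 1) with 1 mean for each of 8 groups and 8 residual degrees of freedom. A member counted as called where p, adjusted by Benjamini-Hochberg over all genes tested, was under 0.05. The ratio of isoforms was tested by an exact permutation test. Near-identical transcripts were sought with BLAST 2.17.0 (at least 95% identity over at least 200 bases). They were found for 25 members, for 23 of them in a pseudogene, and are not named at each such member above. Other steps used Python 3.11.15, pandas 2.3.3, numpy 2.4.6 and matplotlib 3.10.9. The fit was tested on simulated data, in which it missed most changes of 1 on the log2 scale, and false calls made up more than the nominal share.

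Named genes were the testis isoforms and their counterparts, other tissue isoforms, X-linked members, the members of highest and lowest mean in a complex, up to 10 called members in each direction of a cell type comparison whose groups did not overlap, the 3 members of smallest p in a genotype comparison without calls (5 in the F test and for the mean over cell types), and at most 4 called genes of each related list. Other called members are named where a count of a complex is spelled out, and were chosen after their values were seen. Members and lists were chosen with earlier results of these data known. Alternatives were other pseudocounts, filters and scalings, eBayes without the trend, a replicate block, grouping by the cell type field, and leaving out each library or the MII libraries.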

Additional observations from a re-analysis of the deposited data

How the results depend on the processing

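Grouping by the cell type field called 14 members in Tex10-deficient against wild-type MI spermatocytes (1 higher, 13 lower), 35 in MII libraries (30 higher, 5 lower) and 33 by the F test. It called 16 for wild-type MI against spermatogonia, 16 for MII against MI and 0 for spermatids against MI. Genotype medians became 0.14 in spermatogonia, −0.47 in MI, 0.88 in MII and −0.43 in spermatids. Cox7b2 and Cyct turned to 2.98 and 2.45 in MII libraries. The mean difference of the Cox7b2 to Cox7b ratio stayed at −1.79 (adjusted exact permutation p 0.63). Moving libraries among groups of equal size cannot change this mean, so its value does not bear on the grouping. Most Tex10-deficient libraries then sit with another cell type than in their titles. Quantile normalization called 5 members between genotypes in MII libraries and moved the wild-type medians to −0.050 (MI against spermatogonia), 0.26 (spermatids against MII) and −0.18 (spermatids against MI, with Atp5b at −0.15). A pseudocount of 0.1 called 1 member in spermatids (Ndufa1), gave a median of −0.64 for MII against MI and a Cox7b2 to Cox7b ratio of −2.02; one of 5 gave medians of 0.25, −0.41 and 0.62 for MI against spermatogonia, MII against MI and spermatids against MII. Without the MII libraries the Cox8c to Cox8a ratio was 0.000752. For the other moves the cause was not tested. The number of all genes called also moved with the setting. A count of members given without that number is therefore not read as a result about the members.

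No label says what a replicate number marks. Same-numbered deviations of Tex10-deficient and wild-type libraries correlated at 0.20, 0.0038, 0.31 and −0.13 over the 4 cell types, so the numbers were not taken to pair the genotypes. Between cell types they correlated at 0.14 to 0.36 in all 6 pairs of wild-type cell types and at −0.08 to 0.42 in the 6 pairs of Tex10-deficient ones, so same-numbered wild-type libraries deviated together. A replicate block called 4 members between genotypes in MII libraries (3 with a block within each genotype), 0 in the other genotype comparisons, 42 for MI against spermatogonia, 42 for MII against MI, 58 for spermatids against MII and 21 for spermatids against MI (22 within genotype).

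Leaving out each library in turn, called members ran between 21 and 41 for MI against spermatogonia, 21 and 39 for MII against MI, 42 and 55 for spermatids against MII and 4 and 16 for spermatids against MI. Between genotypes they ran between 0 and 4 in MII libraries, 0 and 1 for the average, 0 and 1 for the F test, and 0 and 0 elsewhere. Genotype medians ran between −0.0094 and 0.11 in spermatogonia, −0.33 and 0.16 in MI, −0.0090 and 0.41 in MII, −0.21 and 0.094 in spermatids and −0.039 and 0.054 for the average. Wild-type medians ran between 0.29 and 0.39, −0.57 and −0.48, 0.76 and 0.90, and 0.19 and 0.36 in the order above. The mean ratio ran between −1.31 and −0.74 for Cyct to Cycs, −0.79 and −0.25 for Cox6b2 to Cox6b1, −2.07 and −1.52 for Cox7b2 to Cox7b, and −1.02 and −0.29 for Cox8c to Cox8a. With settings other than leaving out a library, 861 values of named genes kept direction and side of the threshold, 52 fell short of it, 10 newly passed it and 3 changed sign.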

Other observations

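Genes that feed or drain the chain also differed between the wild-type cell types. In wild-type MII libraries the ADP/ATP carriers Slc25a4 and Slc25a5 had 64.2 and 25.2 FPKM and 76.99 and 30.9 FPKM, against 4.78 and 1.32 FPKM and 4.62 and 2.49 FPKM in wild-type MI spermatocytes, with log2 changes of 3.50 (SE 0.74, adjusted p = 0.0012) and 3.49 (SE 0.61, adjusted p = 0.00031) by limma. The germ cell carrier Slc25a31 went the other way, with 4.39 and 8.44 FPKM in MII libraries, against 43.6 and 28.7 FPKM in MI spermatocytes, a log2 change of −2.35 (SE 0.36, adjusted p = 0.00013). The MII libraries are those with high Leydig, Sertoli and immune markers, whose part in these values was not tested. Sucla2, a succinyl-CoA ligase subunit of the citric acid cycle, had 10.9 and 15.9 FPKM in wild-type spermatogonia, 84.3 and 69.5 FPKM in MI spermatocytes, 19.9 and 42.4 FPKM in MII libraries and 262 and 277 FPKM in spermatids, and rose in MI spermatocytes against spermatogonia (2.45) and in spermatids against MI spermatocytes (1.80). Idh3g, a subunit of isocitrate dehydrogenase, fell in MI spermatocytes against spermatogonia (−2.59), with 1.496 and 1.49 FPKM in MI spermatocytes, against 11.2 and 17.5 FPKM in spermatogonia.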
